A study of Pteromalus puparum with 9 samples.

Results

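The reservoir and the duct of the salivary gland of Pteromalus puparum, a parasitic wasp whose larvae feed inside the pupae of butterflies, were compared by bulk RNA sequencing. The comparison rests on the 6 gland libraries, 3 of the reservoir and 3 of the duct, out of 9 libraries in all, and they were chosen by their tissue label alone. The other 3 libraries came from the carcass, a word that the labels do not explain further. They shared the filter, the scaling and the estimate of spread with the gland libraries. They are otherwise given here as a further level beside the gland values. All 9 libraries carried the labels wild type and batch1, and the sources used here give neither age, sex nor strain. The labels call the replicates biological and do not say whether each came from its own animals or from a pool, so that p-values speak only to the spread among the samples sequenced.

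In insect salivary glands, secretory cells make the proteins of the saliva, a reservoir holds the fluid, and a duct lined with cuticle carries it towards the mouthparts. The saliva of insects holds digestive enzymes and, in many groups, proteins that act on the host or prey. The cells of a duct and of a reservoir can differ in how much they secrete, line or transport, which is the question that a comparison of their RNA addresses.

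The tables hold transcript models under IDs that they do not pair with gene names, so no gene function is assigned here, the fixed lists of pathway genes and cell type markers were not run, and the tissue labels could not be checked against markers. Models whose IDs differ only in the final isoform number were summed into an ID stem, with a trailing x kept. Stems are used as a proxy for genes: those of different ID prefixes may overlap in 1 locus, near-identical copies may share reads, and the sources used here do not say whether the counting used the strand. In bulk RNA, fewer cells of a type and less RNA per cell cannot be told apart. Reservoir libraries held 18814337 to 22640711 counts, duct libraries 18690598 to 22220312 and carcass libraries 20220473 to 22061863. Log CPM values of the stems correlated at 0.9399 to 0.9536 between reservoir libraries, at 0.9476 to 0.9566 between duct libraries and at 0.804 to 0.8435 between a reservoir and a duct library. CPM is a count per 1000000 after TMM scaling throughout, and it is not corrected for transcript length. TMM factors were 0.742 to 0.8174 in the reservoir, 0.9477 to 1.034 in the duct and 1.087 to 1.652 in the carcass.

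Reservoir and duct had 8 of their 10 most abundant stems in common and differed in many stems at all levels, with more losses than gains in the reservoir. Of 12143 tested stems, 2079 were called, which is 17.1%. The reservoir was higher in 758 of them (6.24% of the tested stems) and lower in 1321 (10.9%). Calls needed a fold change of at least 2 and, in edgeR's quasi-likelihood test, a p under 0.05 after Benjamini-Hochberg adjustment. All 3 reservoir libraries lay above all 3 duct libraries in 2427 stems (20% of the tested stems) and below them in 2973 (24.5%), and the same separation held for 749 of the 758 stems called higher and 1316 of the 1321 called lower. The balance of gains and losses depended on the setting. Called stems were higher in the reservoir in 36.5% of cases after TMM scaling, in 42.8% with upper-quartile scaling and in 21.4% with scaling by library size only. With limma on log2(TPM + 1) it was 19.3%, but that fit also changes the test, adds a pseudocount and lacks reservoir replicate 2. Against TMM scaling, the median over all tested stems, on the log2 scale, moved by -0.34 with library size alone, by -0.27 on the log2(TPM + 1) scale and by 0.14 with upper-quartile scaling. In the TMM fit itself that median was -0.03.

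Losses in the reservoir ran deeper than gains. Among the stems called higher, 363 (47.9%) were 2 to 4-fold higher, 268 (35.4%) 4 to 16-fold, 45 (5.94%) 16 to 64-fold and 8 (1.06%) beyond that, and 74 (9.76%) had at most 3 counts over the duct libraries. Among the stems called lower, 396 (30%) were 2 to 4-fold lower, 364 (27.6%) 4 to 16-fold, 181 (13.7%) 16 to 64-fold and 160 (12.1%) beyond that, and 220 (16.7%) had at most 3 counts over the reservoir libraries. No count at all was found in the duct for 33 of the higher stems and in the reservoir for 106 of the lower ones. With stems of at most 3 counts placed at the bound that 3 counts allow, the median log2 fold change was 2.06 over the stems called higher and -3.02 over those called lower. These folds are from the contrast that made the calls and describe the called stems only.

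**Figure D1:**
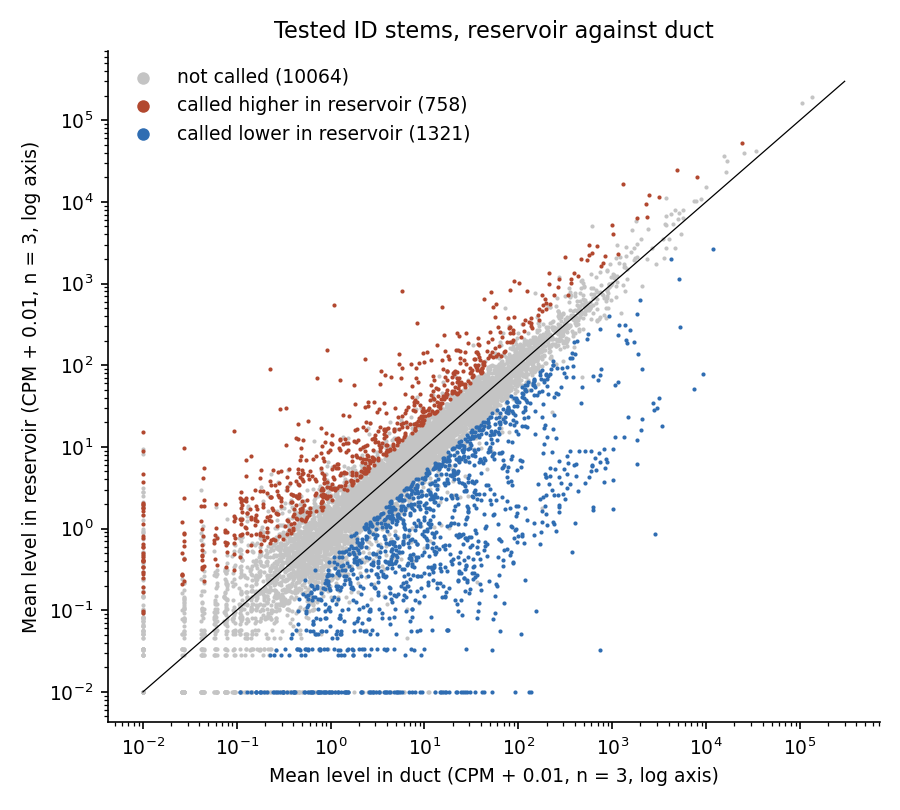
Mean level of each tested stem in the reservoir (vertical axis) against the duct (horizontal axis), both in CPM with 0.01 added, on log axes, n = 3 libraries each. The stems called higher in the reservoir (758) lie mostly close above the diagonal, while many of those called lower (1321) lie far below it. Dots along the lower border are stems without a reservoir count, and dots along the left border are stems without a duct count.

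The share of called stems differed between levels. Of the 142 stems with at least 1000 CPM in the higher of the gland parts, 30 (21.1%) were called higher and 35 (24.6%) lower. Between 100 and 1000 CPM the reservoir was higher in 12.2% and lower in 19.4% of 887 stems, and under 1 CPM in 4.67% and 6.8% of 1972 stems. In the bins between, the shares were 6.1% higher and 10.1% lower of 4803 stems at 1 to 10 CPM. At 10 to 100 CPM they were 5.42% and 11.4% of 4339 stems. The precision of a low stem is smaller, and the part of depth in these shares was not tested.

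The stems called higher made up 18.8% ± 1.59 of the counts in the reservoir and 7.12% ± 0.332 in the duct (SD, n = 3 each). The stems called lower made up 1.52% ± 0.302 in the reservoir and 16.2% ± 1.09 in the duct. In the carcass the higher set held 39.3% ± 3.41 and the lower set 8.85% ± 2.14. Most gland RNA lay outside both sets: the stems that were not called held 79.7% ± 1.4 of reservoir counts and 76.7% ± 0.767 of duct counts, against 51.7% ± 2.82 of carcass counts. The sets were chosen by this contrast, so their shares in the gland are a description.

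**Figure D2:**
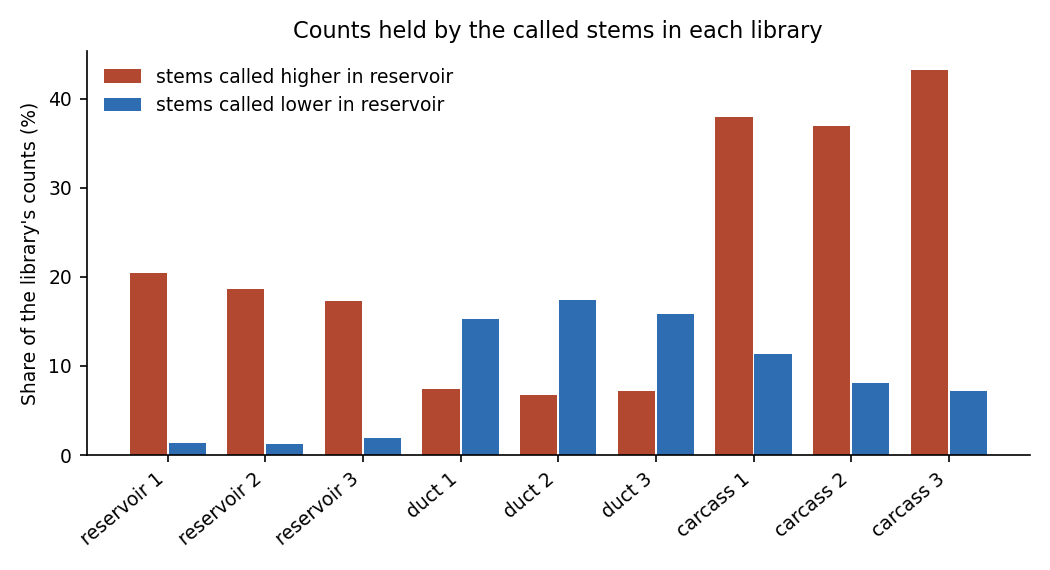
Share of each library's counts (percent, vertical axis) held by the 758 stems called higher (red) and the 1321 called lower (blue) in the reservoir. The red bars stand at 17.3% to 20.4% in the reservoir, against 6.77% to 7.42% in the duct libraries, the blue bars at 1.29% to 1.86% in the reservoir, against 15.3% to 17.4% in the duct libraries, and in the carcass the red bars reach 36.9% to 43.2%.

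The 10 stems with the most CPM had 8 members in common between reservoir and duct, the first 100 had 67 and the first 500 had 367 (73.4%). Among the reservoir's first 100 stems 28 were called higher and 3 lower there. Among the duct's first 100 stems 10 were called higher and 30 lower in the reservoir. Each list was ranked by levels that the contrast compares, so an excess of its own direction is built in. Of all stems with at least 1000 CPM in the higher gland part, 21.1% were called higher and 24.6% lower. The leading stems took a larger share in the reservoir. The 10 most abundant stems of each library held 47.9%, 49.8% and 47.8% of the counts in reservoir replicates 1 to 3, against 37.6%, 39.5% and 38.7% in the duct. The groups did not overlap, and the difference was 9.89 percentage points (two-sided exact permutation p = 0.1, the smallest that 3 against 3 libraries allow). The first 100 stems held 74.5% ± 0.879 in the reservoir and 63.8% ± 1.2 in the duct (SD, n = 3 each). The single leading stem took 15.1% ± 1.61 and 13.2% ± 0.745, with overlapping groups (exact permutation p = 0.2).

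Fewer stems passed 1 CPM in the reservoir. Their number was 9271, 9127 and 9174 in reservoir replicates 1 to 3, against 9589, 9633 and 9540 in the duct. The groups did not overlap, and the mean difference was -397 stems (exact permutation p = 0.1, the smallest possible), or -729 without TMM scaling. A library whose counts are concentrated in a few stems leaves fewer counts for the rest, and the part of this in the numbers was not tested.

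The stems with the largest share of gland counts, Ppup084370 and Ppup084360, were not called. Ppup084370 stood at 178000, 203000 and 204000 CPM in the reservoir, against 134000, 142000 and 129000 CPM in the duct, 0.53 ± 0.44 on the log2 scale (SE here and below; edgeR adjusted p = 0.439). Ppup084360 stood at 161000, 180000 and 146000 CPM in the reservoir, against 87500, 116000 and 111000 CPM in the duct (0.63 ± 0.48, edgeR adjusted p = 0.392). In TMM-scaled CPM every reservoir value lay above every duct value in both stems, although neither passed the test. For Ppup084370 this separation depended on the scaling. Its TPM was 23700 and 28100 in reservoir replicates 1 and 3, against 24700, 24000 and 21100 in the duct.

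Among the stems called higher, MSTRG.6543 and PB.4048x gained the largest share of library counts. MSTRG.6543 had 56800, 54900 and 46800 CPM in the reservoir, against 24000, 25200 and 23600 CPM in the duct and a mean of 1390 CPM in the carcass. The reservoir libraries lay well above the duct libraries, with a log2 fold change of 1.12 ± 0.3 (edgeR adjusted p = 0.0291). This fold is near the minimum, and the call was lost in 11 of 21 alternative settings, 5 of them fits without 1 library (edgeR adjusted p of 0.00537 to 0.0987 over the 9 such fits). PB.4048x, a stem of 6 models, had 34200, 25000 and 14300 CPM in the reservoir, against 3110, 5710 and 5750 CPM in the duct. Its groups were far apart in spite of the spread within the reservoir (2.34 ± 0.47, edgeR adjusted p = 0.00844), and the carcass stood at 33.3 ± 14.5 CPM (SD, n = 3).

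Other abundant stems with a gain, chosen once their values had been seen, were Ppup025070, PB.6187x and PB.6186x. Ppup025070 reached 19900, 14500 and 15800 CPM in the reservoir, against 1120, 1280 and 1560 CPM in the duct (3.66 ± 0.6, edgeR adjusted p = 0.00335). PB.6187x stood at 20400 ± 2660 CPM in the reservoir, against 8040 ± 1100 CPM in the duct (1.35 ± 0.31, edgeR adjusted p = 0.0151), and PB.6186x at 12000 ± 1580 and 2460 ± 944 CPM (2.29 ± 0.65, edgeR adjusted p = 0.0359). All 3 were low in the carcass, at means of 10.6, 78.2 and 25.8 CPM. The call of PB.6187x was lost without duct replicate 1 or 2, and that of PB.6186x without any 1 of the 6 gland libraries, with edgeR adjusted p values up to 0.0613 and 0.116. Scaling by library size only also ended both calls.

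The largest fold gains among stems with at least 50 CPM in the reservoir were those of PB.3969 and PB.6922x. PB.3969 had 621, 670 and 356 CPM in the reservoir, against 0.724, 1.09 and 1.39 CPM in the duct, and 1 of the carcass libraries held any count of it. Reservoir and duct values were far apart (log2 fold change 9.0 ± 0.9, edgeR adjusted p = 0.000382). PB.6922x had 70.2, 92.7 and 103 CPM in the reservoir, against 0.103, 0.285 and 0.257 CPM in the duct, where 13 counts stood behind it (8.64 ± 0.46, edgeR adjusted p = 5.5e-05). PB.3637, chosen after its values were seen, stood at 797 ± 71.9 CPM in the reservoir, against 50.6 ± 10.6 CPM in the duct, with no carcass count (3.98 ± 0.23, edgeR adjusted p = 0.000181).

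Stems without any duct count reached lower levels. PB.4553 had 8.41, 19.1 and 18.8 CPM in the reservoir and was at least 314-fold higher there, taking 3 counts over the duct group as the floor (edgeR adjusted p = 0.00101). It was not restricted to the gland, with 11.8, 4.25 and 12.4 CPM in the carcass. PB.6901x had 9.11, 9.49 and 8.32 CPM in the reservoir, with neither a duct nor a carcass count, and was at least 178-fold higher than in the duct (edgeR adjusted p = 0.000681). The smallest p-values among the gains belonged to PB.639, at 163, 146 and 135 CPM in the reservoir, against 17.4, 16.9 and 15.1 CPM in the duct (3.17 ± 0.12, edgeR adjusted p = 1.94e-05), and to PB.2709, at 13 ± 0.592 and 0.417 ± 0.102 CPM (4.94 ± 0.22, edgeR adjusted p = 2.57e-05). Both varied little between libraries.

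**Figure D3:**
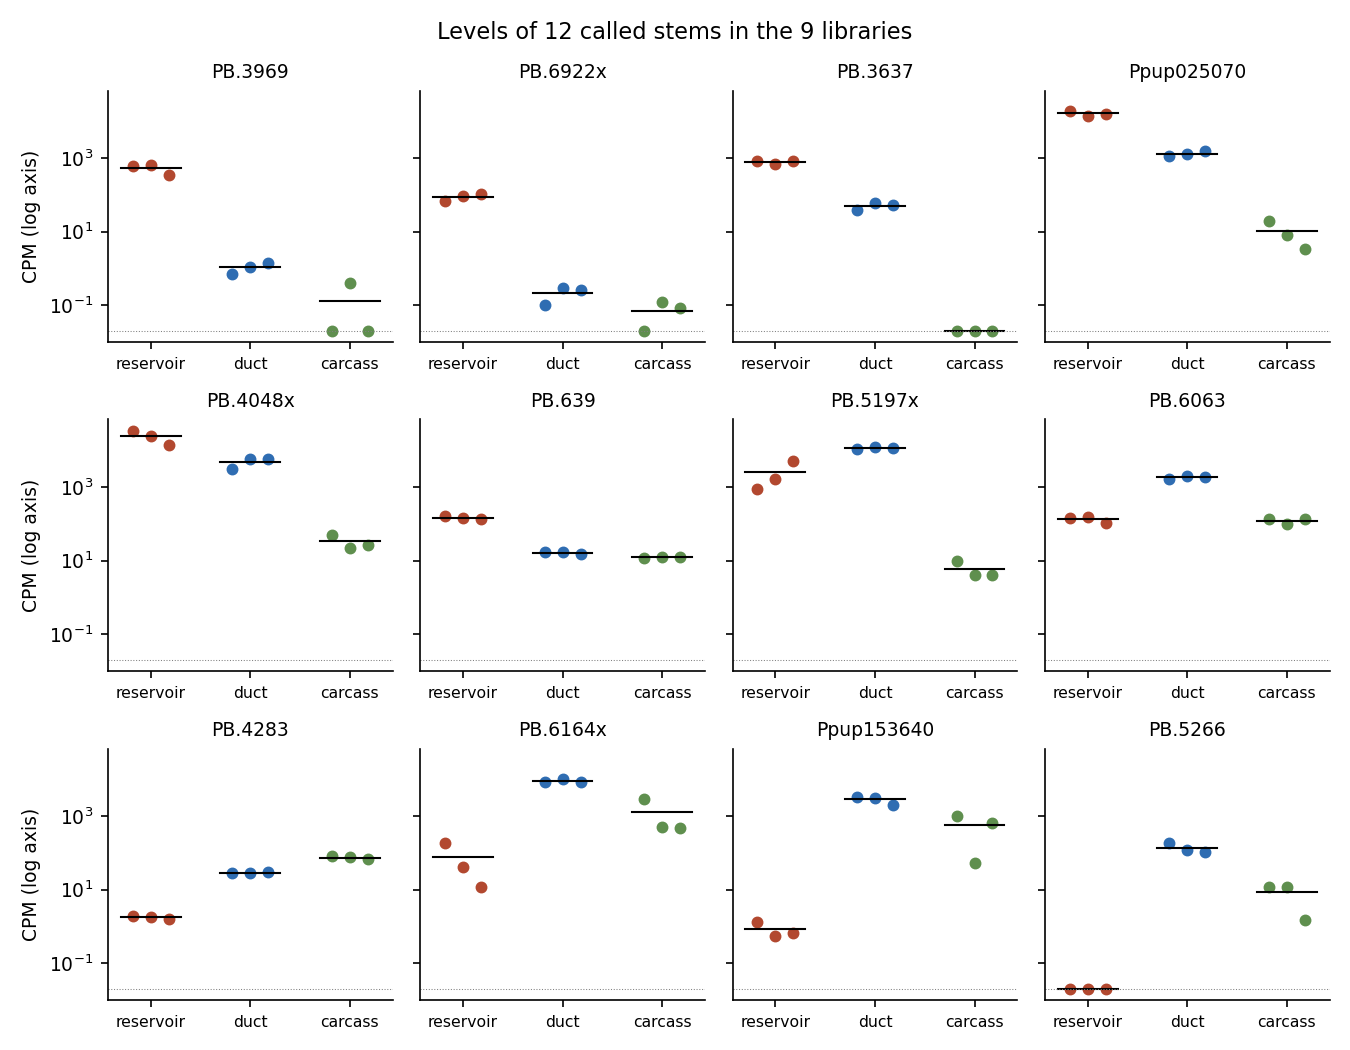
Levels of 12 called stems in CPM (log axis, same in all panels) in the reservoir, duct and carcass, 1 dot per library with replicates 1 to 3 from left to right and a line at the mean, libraries without a count being set on the dotted line. In PB.5197x the reservoir values spread from 883 to 5270 CPM and in PB.6164x from 11.5 to 183 CPM, while in PB.639 and PB.4283 the dots of each tissue nearly coincide.

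Among the stems called lower, PB.5197x and PB.6164x lost the largest share of library counts. PB.5197x had 883, 1690 and 5270 CPM in the reservoir, against 11100, 12400 and 11700 CPM in the duct and a mean of 6.02 CPM in the carcass. Reservoir replicate 3 stood well above the other reservoir libraries, and still below the duct (-2.16 ± 0.66, edgeR adjusted p = 0.0459). The call was lost in 12 of 21 alternative settings, 7 of them fits without 1 library (edgeR adjusted p of 0.00908 to 0.156 over the 9 such fits), and without reservoir replicate 3 the log2 fold change was -3.07. PB.6164x had 183, 42.8 and 11.5 CPM in the reservoir, against 8440, 10300 and 8800 CPM in the duct (-6.86 ± 1.28, edgeR adjusted p = 0.00586). Here reservoir replicate 1 was the highest, and the log2 fold change was -8.29 without it and -6.22 without replicate 3. The carcass held 2890, 520 and 476 CPM of PB.6164x.

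Among abundant duct stems chosen after their values were seen, Ppup153640 nearly vanished from the reservoir, at 1.33, 0.546 and 0.649 CPM there, against 3450, 3110 and 2040 CPM in the duct. The groups were far apart, with a log2 fold change of -11.73 ± 1.29 (edgeR adjusted p = 0.000579), and the carcass held 569 ± 476 CPM. PB.6063, a stem of 8 models, stood at 146, 155 and 108 CPM in the reservoir, against 1700, 2070 and 1930 CPM in the duct (-3.81 ± 0.23, edgeR adjusted p = 7.13e-05). Its reservoir level was close to the carcass mean of 123 ± 20.8 CPM.

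The largest fold losses among stems with at least 50 CPM in the duct were those of PB.1473x and PB.5266, which were also the most abundant duct stems with at most 3 reservoir counts. PB.1473x had 1 count over the 3 reservoir libraries and 46005 over the duct libraries, where it stood at 202, 1610 and 418 CPM. The ratio of duct to reservoir was 36400, and its exact 95% interval for counting error ran over 6540 to 1440000 (edgeR adjusted p = 0.00314). Without duct replicate 2, which held most of these counts, the duct mean was 310 CPM and the ratio 14700. The fitted log2 fold change of -14.75 was -13.49 without that library, and -17.01 and -14.08 without reservoir replicates 2 and 3. PB.5266 had no reservoir count, and 184, 120 and 103 CPM in the duct, at least 2140-fold lower in the reservoir with 3 counts over its libraries as the floor (edgeR adjusted p = 0.00153). Intervals and floors cover counting error only.

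The smallest p-values among the losses belonged to PB.4283 and PB.8025x. PB.4283 had 1.96, 1.78 and 1.57 CPM in the reservoir, against 28.6, 28.1 and 31.1 CPM in the duct (-4.05 ± 0.14, edgeR adjusted p = 1.45e-05). PB.8025x had 1.19, 0.888 and 0.811 CPM in the reservoir, against 34.6, 31.6 and 36.9 CPM in the duct (-5.16 ± 0.21, edgeR adjusted p = 1.94e-05). Both were higher still in the carcass, at 75.1 ± 6.33 and 57.8 ± 9.96 CPM.

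The carcass level divided the called stems. Over all stems called lower in the reservoir, the carcass mean lay between reservoir and duct in 696 (52.7%), above both in 467 (35.4%) and below both in 158 (12%). Over the stems called higher it lay above both in 317 (41.8%), below both in 276 (36.4%) and between them in 165 (21.8%). Among the stems that were not called, it lay above both in 46.6%, below both in 38.5% and between them in 15%, where the gland means are closer together.

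Among stems with at least 100 CPM in the higher gland part, the carcass also held most losses, as it did most stems that were not called. Of the losses, 189 (91.3%) had a carcass mean of at least 5% of their duct mean and 18 were below that limit. Of 684 stems that were not called, 83.6% had a carcass mean of at least 5% of the higher gland mean and 18% were higher in the carcass than in both gland parts. Of the gains, 76 had a carcass mean under 5% of their reservoir mean, 46 lay between that limit and the reservoir mean, and 16 (11.6%) were higher in the carcass than in both gland parts, so that 44.9% of the gains reached the limit of 5%. The limits, and the fits of these counts without single libraries, were chosen after the data were seen. The 76 held 18.1%, 16.5% and 15.2% of the counts in reservoir replicates 1 to 3 and 6.58%, 6% and 6.38% in the duct, with a median carcass level of 0.313% of the reservoir level. The count of 18 was 56 when carcass replicate 1 was left out, 11 and 10 when this was done with duct replicate 2 or 3, and 9 and 8 for reservoir replicate 1 or 2. The 189 became 153 to 191 when 1 library was left out, the 76 became 53 to 92, and the 16 became 10 to 15, with 10 without reservoir replicate 1. The limits moved the counts as well. The 18 became 11 at a limit of 2% and 44 at 10%. With at least 50 CPM in place of 100 the 189, 18, 46 and 16 became 297, 28, 78 and 24, and with at least 500 CPM the 189, 18, 76, 46 and 16 became 51, 11, 40, 5 and 3. A carcass mean at least 10 times both gland means was found for 8 of the 16.

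Duct stems with carcass counts fell into those that the reservoir nearly lacked and those that it kept at a lower level. A loss of at least 16-fold was found for 100 of the 189. As a percentage of the duct mean, the reservoir level of these 100 had a median of 2.13% in replicate 1 (quartiles 1.45% and 2.97%), 0.617% in replicate 2 (0.346% and 0.91%) and 0.185% in replicate 3 (0.0914% and 0.52%). Reservoir replicate 1 was the highest of the 3 in 94 of the 100. Their carcass level had a median of 14.6% of the duct mean. The number was 69 without carcass replicate 1 and 81 to 100 without any other single library.

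The other 89 stems, with a smaller loss, stood at medians of 33.2%, 35% and 31.2% of the duct mean. The split by the size of the loss sets these levels, and a difference of the size seen among the 100 would be small beside them, so the spread between libraries is not compared between the sets. The 14 stems with a smaller loss and little carcass RNA had their highest median in another library, with values of 15.9%, 15.3% and 27.9%, and replicate 3 was the highest in 8 of them. Examples of that kind are PB.5197x and, chosen after their values were seen, Ppup085830 and Ppup127940. Ppup085830 had 664, 424 and 2290 CPM in the reservoir, against 3370, 5950 and 6100 CPM in the duct (-2.19 ± 0.61, edgeR adjusted p = 0.0332, not called without duct replicate 2 or 3 or reservoir replicate 1 or 2, nor with the 6 gland libraries alone, and -3.12 without reservoir replicate 3). Ppup127940 had 191, 183 and 436 CPM in the reservoir, against 1400, 1460 and 1770 CPM in the duct (-2.51 ± 0.59, edgeR adjusted p = 0.0161, not called without reservoir replicate 1 or 2, nor in a test against a fold of 2).

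**Figure D4:**
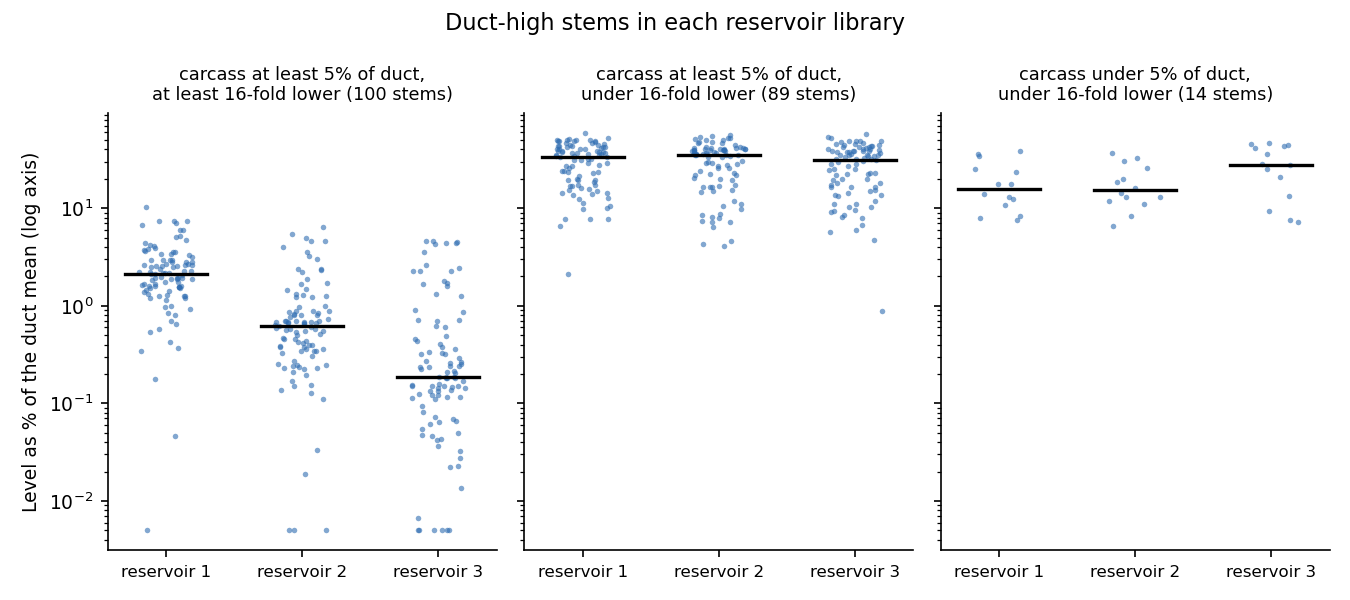
Level of each duct-high stem in the 3 reservoir libraries, as a percentage of its duct mean (log axis, 1 dot per stem, line at the median), for the 100 stems at least 16-fold lower with carcass counts (left), the 89 with a smaller loss and carcass counts (middle) and the 14 with a smaller loss and little carcass RNA (right), dots at the bottom edge having no count. The medians on the left are 2.13%, 0.617% and 0.185%, those in the middle 33.2%, 35% and 31.2%, and those on the right 15.9%, 15.3% and 27.9%.

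The reservoir libraries also differed in RNA that was abundant in the carcass. In 6 stems with at least 1000 CPM in the carcass and over 100 times less in both gland parts, the median level relative to the carcass was 0.892%, 0.341% and 0.218% in reservoir replicates 1 to 3, against 0.0186%, 0.168% and 0.129% in duct replicates 1 to 3. Replicate 1 was thus the highest reservoir library both here and in the 100 duct stems above. The part of this in either pattern was not tested. Over all stems called lower, reservoir replicate 1 was the highest reservoir library in 58%, against 36.7% of the stems that were not called.

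The 16 gains with a carcass mean above both gland parts held 0.468%, 0.308% and 0.32% of the counts in reservoir replicates 1 to 3, between 0.0619% and 0.0925% in the duct libraries and 31.6% to 38.7% in the carcass libraries. PB.2430, the most abundant of them in the carcass, had 1460, 803 and 796 CPM in the reservoir, against 40.9, 154 and 109 CPM in the duct and 77800 ± 9640 CPM in the carcass (3.33 ± 0.54, edgeR adjusted p = 0.00331). Ppup138560 had 664, 246 and 262 CPM in the reservoir, against 13.9, 83.8 and 71.6 CPM in the duct and 52900 ± 18400 CPM in the carcass (2.79 ± 0.73, edgeR adjusted p = 0.0253, not called without reservoir replicate 1 or duct replicate 3, nor in a test against a fold of 2). PB.6442x, Ppup021040 and Ppup138560 are among both these 16 and the 6 stems of the preceding measure. The reservoir and duct levels of that measure therefore follow in part from the calls. Carcass RNA in the gland samples and expression in the gland cannot be told apart for these stems.

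Among the losses, the stems with the most carcass counts were PB.5706 and PB.955. PB.5706 had 15.6, 4.3 and 0.919 CPM in the reservoir, against 91, 129 and 96.1 CPM in the duct and 3680 ± 1110 CPM in the carcass (-3.93 ± 0.87, edgeR adjusted p = 0.0124). Its log2 fold change was -5.23 without reservoir replicate 1 and -3.27 without replicate 3, and the call was lost without replicate 2. PB.955, a stem of 42 models, had 5.96, 4.51 and 1.03 CPM in the reservoir, against 85.9, 82 and 80.8 CPM in the duct and 2220 ± 626 CPM in the carcass (-4.44 ± 0.59, edgeR adjusted p = 0.00132, and -3.86 without reservoir replicate 3).

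Called stems often followed stems with the same call in the deposited table. The next tested stem after a stem called higher was also called higher in 160 of 758 cases (21.1%, beside 6.24% of all tested stems). After a stem called lower it was called lower in 406 of 1320 cases (30.8%, beside 10.9%). The opposite call followed in 7.78% after a higher stem (beside 10.9%) and in 3.79% after a lower stem (beside 6.24%). At the next stem but one the same call was found in 13.2% and 20.3%, and among Ppup stems alone in 15.6% (beside 8.36%) and 25.7% (beside 18.4%). Among Ppup stems the opposite call followed a higher stem in 18.8% (beside 18.4%) and a lower stem in 4.29% (beside 8.36%). The sources used here do not say what the order means, and neighbouring stems of different ID prefixes may share reads, so these are counts of IDs and not of independent genes.

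The longest run of losses held 10 stems, Ppup025290 to Ppup025420. It includes PB.6199x at 30.4, 7.24 and 1.68 CPM in the reservoir, against 978, 1370 and 890 CPM in the duct (-6.37 ± 1.11, edgeR adjusted p = 0.00439), and Ppup025340 at 10.2, 0.888 and 0.0541 CPM in the reservoir, against 516, 1250 and 655 CPM in the duct (-7.79 ± 1.68, edgeR adjusted p = 0.0113). Reservoir replicate 1 was the highest reservoir library in both. The longest run of gains held 7 stems, among them PB.639, PB.636 at 411, 372 and 367 CPM in the reservoir, against 81.3, 85 and 68.8 CPM in the duct (2.29 ± 0.36, edgeR adjusted p = 0.00282), and PB.637 at 70.6 ± 11.4 and 0.702 ± 0.235 CPM (6.64 ± 0.37, edgeR adjusted p = 5.73e-05). PB.636 and PB.637 were nearly without carcass counts, with means of 1.15 and 0.0439 CPM. PB.638 had no carcass count and PB.626x averaged 0.247 CPM there. The rest of the run had carcass RNA: PB.639 averaged 12.4 CPM in the carcass, and MSTRG.741 averaged 12 CPM in both carcass and reservoir. Ppup042990 averaged 28.8 CPM in the carcass, against 0.406 CPM in the reservoir.

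**Figure D5:**
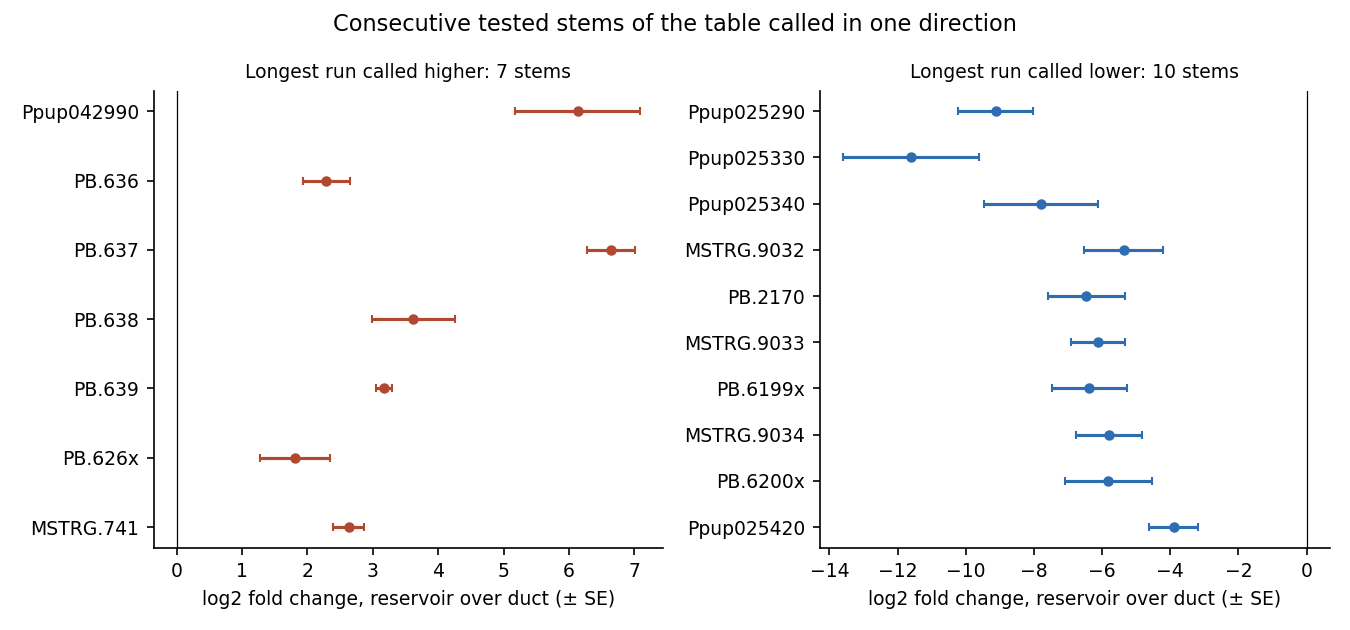
Log2 fold changes, reservoir over duct, with their SE for the longest runs of consecutive tested stems called in 1 direction, 7 stems called higher (left) and 10 called lower (right), in table order from top to bottom. Intervals away from 0 follow from the calls by which these stems were chosen. The fitted values of Ppup042990, without a duct count, and of Ppup025290 and Ppup025330, without a reservoir count, depend on the prior count and are no bounds.

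Numbers close to that run of losses also held gains. Of the 29 Ppup stems from Ppup024710 to Ppup025460, 16 were tested. Of these, 5 were called higher and 7 lower, beside 8.36% and 18.4% of all tested Ppup stems, and 4 were not called. The losses Ppup025290, Ppup025330, Ppup025340 and Ppup025420 belong to that run. Ppup024710 averaged 11400 CPM in the reservoir, against 3170 CPM in the duct, and Ppup025070 has been given above. Ppup024760, between them in number, averaged 2.99 CPM in the reservoir, against 230 CPM in the duct. This stretch was chosen after its values were seen.

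Of 21287 tested models, 1929 (9.06%) were called, 708 higher (3.33%) and 1221 lower (5.74%) in the reservoir. This was fewer than over stems, but the order depended on the setting: models gave more calls than stems with DESeq2 (3231 against 2376), with the 6 gland libraries alone (2136 against 1958), with limma on log2(TPM + 1) (1773 against 1464) or log2(TPM + 0.1) (2313 against 2174), and with at least 10 CPM in 3 libraries (1441 against 1404). A called model was found in 1419 of the 2079 called stems, and 286 called models lay in stems that were not called. Of the models called higher, 553 lay in stems called higher and 8 in stems called lower. Of those called lower, 1079 lay in stems called lower and 3 in stems called higher. This shared direction is largely built in, because a stem's count contains its models. Of the 2079 called stems, 1224 held 1 model, and in 869 of these that model was called. The spread between replicates was larger for models, with a common biological coefficient of variation of 0.771 against 0.367 for stems. Isoforms of a stem can share reads, so a model's count depends on how they were divided.

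Of the 4 models named for the largest changes, 3 belong to stems that were not called. PB.2543.35x had 675, 365 and 273 CPM in the reservoir, without a duct count (edgeR adjusted p = 0.0101), while its stem differed by 2.14 ± 0.79 and did not pass the test (edgeR adjusted p = 0.0859). PB.144.103x had 396, 417 and 122 CPM and no duct count (edgeR adjusted p = 0.0427), in a stem that differed by 0.28 ± 0.42 (edgeR adjusted p = 0.688), and its call was lost without any 1 of 8 of the 9 libraries. PB.6097.12x had no reservoir count and 595, 799 and 1140 CPM in the duct (edgeR adjusted p = 0.00182), in a stem at -1.52 ± 0.5 (edgeR adjusted p = 0.0577). PB.1473.1x is the 1 model of PB.1473x, and as a model its call was lost without reservoir replicate 2.

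In 28 stems single models were called in both directions, and 10 of these stems were called as sums. By gland counts the first of the 28 was PB.2155, a stem of 19 models. PB.2155.15 had 1770, 1770 and 1610 CPM in the reservoir, against 377, 386 and 371 CPM in the duct (2.19 ± 0.3, edgeR adjusted p = 0.00434). PB.2155.11 had 0.76, 0.956 and 0.0537 CPM in the reservoir, against 39, 26.5 and 42 CPM in the duct (-5.94 ± 1.44, edgeR adjusted p = 0.0379, not called without any 1 of the gland libraries). The sum stood at 2780 ± 59.8 CPM in the reservoir, against 1420 ± 97.6 CPM in the duct, a log2 fold change of 0.97 ± 0.24 that passed the test but missed the fold minimum (edgeR adjusted p = 0.0221). PB.1376, of 133 models, was nearly level as a sum, at 1590 ± 90.8 and 1330 ± 28.3 CPM (0.26 ± 0.16, edgeR adjusted p = 0.285), and held 1 model called higher and 5 called lower. The most abundant of them, PB.1376.143, had 20.1, 10.2 and 10.3 CPM in the reservoir, against 112, 143 and 103 CPM in the duct (-3.14 ± 0.37, edgeR adjusted p = 0.00258). The only gain, PB.1376.63, was near the floor, averaging 1.23 CPM in the reservoir, against 0.485 CPM in the duct. Its call was lost in 6 of 21 alternative settings. The losses PB.1376.74 and PB.1376.280 were low as well, averaging 0.894 and 0.731 CPM in the duct, without a reservoir count.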

How the data were processed

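Libraries were strand-specific and paired-end, sequenced on an Illumina platform, per the labels' protocols. Salmon 1.9 did the quantification, per the submitters' processing notes, which do not name the reference. The authors deposited estimated counts for 40026 transcript models, all whole numbers. The authors also deposited TPM, of which 8 columns sum to 1000000. The column of reservoir replicate 2 sums to 2000000, equals the sum of 2 other columns and was not used (1 column).

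Counts were summed to 21808 ID stems, 5467 without any count. Groups came from the labels. filterByExpr kept 12143 stems, and edgeR 4.0.16 (R 4.3.3) fitted a quasi-likelihood model to all 9 libraries with TMM scaling and 1 coefficient per tissue. The contrast was reservoir minus duct, with calls at p under 0.05 after Benjamini-Hochberg adjustment and a log2 fold change of at least 1 in size. The SE printed with a log2 fold change was not estimated by the fit itself. It was the size of the log2 fold change divided by the square root of the F statistic of the test. Alternatives used DESeq2 1.42.0, limma 3.58.1 on TPM with a pseudocount of 1 or 0.1, other scalings and filters, a replicate block and fits without each library. The limma fits had no reservoir replicate 2, as its TPM column was not used. Shares were compared by exact permutation. The scripts were tested on simulated counts.

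Stems were named from called stems with non-overlapping groups, 2 gains and 2 losses each: the largest fold from 50 CPM upwards, the largest change in share, the highest level with at most 3 counts in the other tissue, the smallest p and the highest carcass level. The 2 uncalled stems with the most counts, 2 models gained and 2 lost by the first rule, and 2 stems with models called both ways were added. The comparison, rules and lists were chosen with earlier results of these data known. Deviations of same-numbered reservoir and duct libraries from their group means correlated at -0.0177, -0.0144 and -0.0222. The labels do not say whether the numbers pair the samples, and they were not taken to do so.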

Additional observations from a re-analysis of the deposited data

How the results depend on the processing

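No called stem or model named under the rules changed direction under any setting that gave a value. Of the 18 stems named under the rule for called stems, 14 kept their call in all of these settings. Stems named only as members of a run, of the stretch of Ppup numbers or of the carcass-rich set were not followed one by one through the settings. Stems: the number called higher was 502 with library size alone, 1153 without the fold minimum, 283 with limma on log2(TPM + 1) and 445 on log2(TPM + 0.1). With glmTreat of edgeR, which tests against a fold of 2, 1181 were called (336 higher, 845 lower). With at least 10 CPM in 3 libraries 749 were lower, of fewer stems tested (6314). DESeq2 called 2376, of which 1994 were among the 2079, and the 6 gland libraries alone gave 1958. Leaving out each library gave 1720 to 2144. Models: 439 were higher with library size alone, 366 and 466 with limma at the pseudocounts 1 and 0.1, where the second gave 1847 lower. DESeq2 called 3231 models (1346 higher, 1885 lower) and the test against a fold of 2 called 1056 (296 and 760). Models called higher numbered 450 to 693 without 1 library, with 450 and 462 without reservoir replicates 1 and 2. With the replicate block edgeR called 1784 stems and 1130 models (364 higher, 766 lower). The labels do not say whether same-numbered samples are paired, and the small correlations of their deviations cannot settle it. The cause of these changes was not tested. The stricter filter tests fewer stems and also refits the scaling and the spread, and the test against a fold has a stricter criterion. The share of the 10 leading stems stayed higher and the number of stems above 1 CPM stayed lower in the reservoir in all their alternatives. Single counts limit stems under 1 CPM, and 3 libraries per tissue limit all tests.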

Other observations

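The share of called stems differed between ID prefixes, which the sources used here do not explain. Of 766 tested Ppup stems, 64 were called higher and 141 lower in the reservoir (26.8%), of 1236 MSTRG stems 102 and 171 (22.1%), of 3140 PB stems with a trailing x 217 and 387 (19.2%), of 6894 other PB stems 372 and 617 (14.3%), of 46 MSTRGCarcass stems 3 and 2 (10.9%), and of 61 MSTRGVenom stems 0 and 3 (4.92%).

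The tables allow a relative measure of length, the counts per TPM of a model divided by the library median, over libraries with at least 50 counts of it. Among models with at least 10 CPM in the higher gland part it had a median of 0.938 over 399 models called higher, 0.757 over 695 called lower and 0.975 over 5476 that were not called. Among models with at least 100 CPM the medians were 0.739 (113 models), 0.585 (180) and 0.618 (716), so that the models called lower were then close to those not called. No test was made of these differences.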
